A study of Mus musculus with 6 samples.

Results

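The hepatic carboxylesterases described here are 10 mouse genes, namely Ces1c, Ces1d, Ces1e, Ces1f and Ces1g of the Ces1 group, Ces2a, Ces2c and Ces2e of the Ces2 group, and Ces3a and Ces3b of the Ces3 group. They were followed through every probe set, the set of short probes that reads 1 transcript, annotated to exactly 1 of these symbols. Of the 10 genes, 7 had such a probe set, among 18193 genes with one on the array. The 7 genes were read by 9 probe sets, 7 of the Ces1 group, 2 of the Ces2 group and 0 of the Ces3 group. Ces2c, Ces3a and Ces3b had none.

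Carboxylesterases are serine hydrolases that cleave esters, thioesters and amides. In hepatocytes most of them sit in the lumen of the endoplasmic reticulum, held there by a retention signal at their C-terminal end. They activate or clear ester drugs and other foreign compounds, and several hydrolyse stored triacylglycerol or cholesteryl esters, which in liver feeds the assembly of very low density lipoprotein. In the mouse the family expanded into many tandem copies, so that several mouse genes stand against each human one.

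Liver RNA came from 6 male BALB/cCrSlc mice, an inbred albino strain, aged 17 weeks, which had eaten low-protein diets based on the purified maintenance diet AIN-93M for 10 weeks. The diet 6C+4CP held 6% casein and 4% fish collagen peptide, and the control diet 10C held 10% casein. Less casein and added peptide came together in 6C+4CP, so that they cannot be told apart. Out of 12 mice per diet, 3 of medium food efficiency gave 1 array each, sampled after 3 h without food. A further group in the study's design is not analysed here.

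The deposited values ran from 4.76 to 14.48 and are read as log2. No label or header names the base of the logarithm, so that every fold below rests on that reading. Of 45037 probe sets, 7791 (17.3%) ranged over more than 0.01 across the 6 arrays and are called varying. The others, with the same or nearly the same value in all 6 mice, are called shrunk below. Such a value does not show whether the level differed. Hepatocyte markers were bright, with Alb, the plasma albumin gene, at 14.23 on every array. The array of 10C replicate 3 stood apart from its own diet. Its root-mean-square distance over the varying probe sets was 0.288 to 6C+4CP replicate 2, against 0.399 and 0.402 to the other 10C arrays. To 6C+4CP replicates 1 and 3 it was 0.402 and 0.383, about as far as to its own diet. The array of 6C+4CP replicate 2 lay 0.275 and 0.290 from the others of its diet. Values that 10C replicate 3 moved by over 1.5 times are given with and without that array. In whole liver, fewer cells of a type and less RNA per cell cannot be told apart.

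The genes lie on chromosome 8 in the RefSeq table (GRCm38.p6). Ces1a to Ces1h follow one another as neighbouring genes with Ces5a after them, and further along come Ces2a to Ces2h, Ces3a, Ces3b and Ces4a. RefSeq's promoter table covered 7 of the 10 members and not Ces1d, Ces1f or Ces3a. The windows of the 3 Ces1 members it covered are shown with that of Ces2e, the varying Ces2 member. Each runs 5′ to 3′ on the gene's strand from 250 bases before the start site to 50 after it. Capitals mark TTATGTAA, the D-box to which PAR bZIP factors such as Dbp bind. Ces1c lies at chr8:93131234-93131533, Ces1e at chr8:93229570-93229869 and Ces1g at chr8:93337160-93337459, all on the minus strand, and Ces2e at chr8:104926010-104926309 on the plus strand.
Ces1c: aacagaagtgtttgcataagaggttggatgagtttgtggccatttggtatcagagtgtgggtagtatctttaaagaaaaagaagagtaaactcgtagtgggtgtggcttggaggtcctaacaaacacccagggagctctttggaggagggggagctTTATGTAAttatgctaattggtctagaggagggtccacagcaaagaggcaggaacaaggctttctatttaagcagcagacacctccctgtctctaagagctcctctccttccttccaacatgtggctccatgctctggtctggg
Ces1e: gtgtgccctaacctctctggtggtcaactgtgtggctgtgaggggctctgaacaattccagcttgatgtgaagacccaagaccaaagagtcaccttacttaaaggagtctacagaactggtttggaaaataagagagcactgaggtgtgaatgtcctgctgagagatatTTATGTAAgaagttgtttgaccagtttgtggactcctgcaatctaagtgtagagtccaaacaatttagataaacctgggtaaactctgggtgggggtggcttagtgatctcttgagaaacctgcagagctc
Ces1g: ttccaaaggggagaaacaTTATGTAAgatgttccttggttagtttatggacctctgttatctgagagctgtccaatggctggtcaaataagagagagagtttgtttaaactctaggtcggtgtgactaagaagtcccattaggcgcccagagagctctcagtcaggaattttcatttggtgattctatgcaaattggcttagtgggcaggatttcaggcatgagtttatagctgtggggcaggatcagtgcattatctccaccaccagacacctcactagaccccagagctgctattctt
Ces2e: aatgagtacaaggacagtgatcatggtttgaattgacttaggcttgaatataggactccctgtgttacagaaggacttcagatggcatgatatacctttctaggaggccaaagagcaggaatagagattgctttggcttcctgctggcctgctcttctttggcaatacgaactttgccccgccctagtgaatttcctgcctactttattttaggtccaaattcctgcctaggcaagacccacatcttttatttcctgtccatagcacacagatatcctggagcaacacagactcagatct

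These 8 letters were searched on both strands after the sequences had been read. They stood on the gene's strand 94 bases before the start of Ces1c, 81 bases before that of Ces1e and 232 bases before that of Ces1g. Of the 6 Ces1 genes that RefSeq's table covered, 5 held them, with Ces1h without a match, and 0 of 9 other carboxylesterase genes did, Ces2e included. Of all 32851 promoter windows of this length, 308 (0.938%) held them. The match describes the letters and shows no binding. Of the windows shown, those of Ces1e, Ces1c and Ces1g held it, with diet differences (given below) of 0.94, 0.092 and 0.34. Ces2e, without it, differed by 0.47, and Ces1d and Ces1f had no window. Any link of the match to diet was not tested. Within the members, the windows of Ces2a and Ces2c were the most alike, with 201 of 300 bases identical in a global alignment. Pairs of the 3 Ces1 members shared 149 to 175 bases, and pairs of members from different groups shared 144 to 163.

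The comparison asked whether carboxylesterase values differed in livers of mice fed 6C+4CP from those of mice fed 10C. All 8 varying carboxylesterase probe sets had a higher mean in 6C+4CP, where 47.9% of all varying probe sets did. The 8 probe sets read 6 genes, with 3 for Ces1d, so that they are not 8 separate results. The members were chosen with earlier results of these data known. The largest differences were those of Ces1d, Ces1e and Ces1f, between 1.65-fold and 2.22-fold. For Ces1c, Ces1e and Ces1f each of the 3 livers of mice fed 6C+4CP lay above each of the 3 of mice fed 10C. The same held for 10.8% of all varying probe sets, and the gap of Ces1c was only 0.020. None of the 9 probe sets passed limma's test at an adjusted p of 0.05 over all probe sets, which 109 probe sets (0.242%) passed, 103 of them shrunk. Of the members 3 (Ces1c, Ces1e and Ces1f) had an unadjusted p under 0.05 in that fit, as did 2890 of 45037 probe sets (6.42%).

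**Figure D1:**
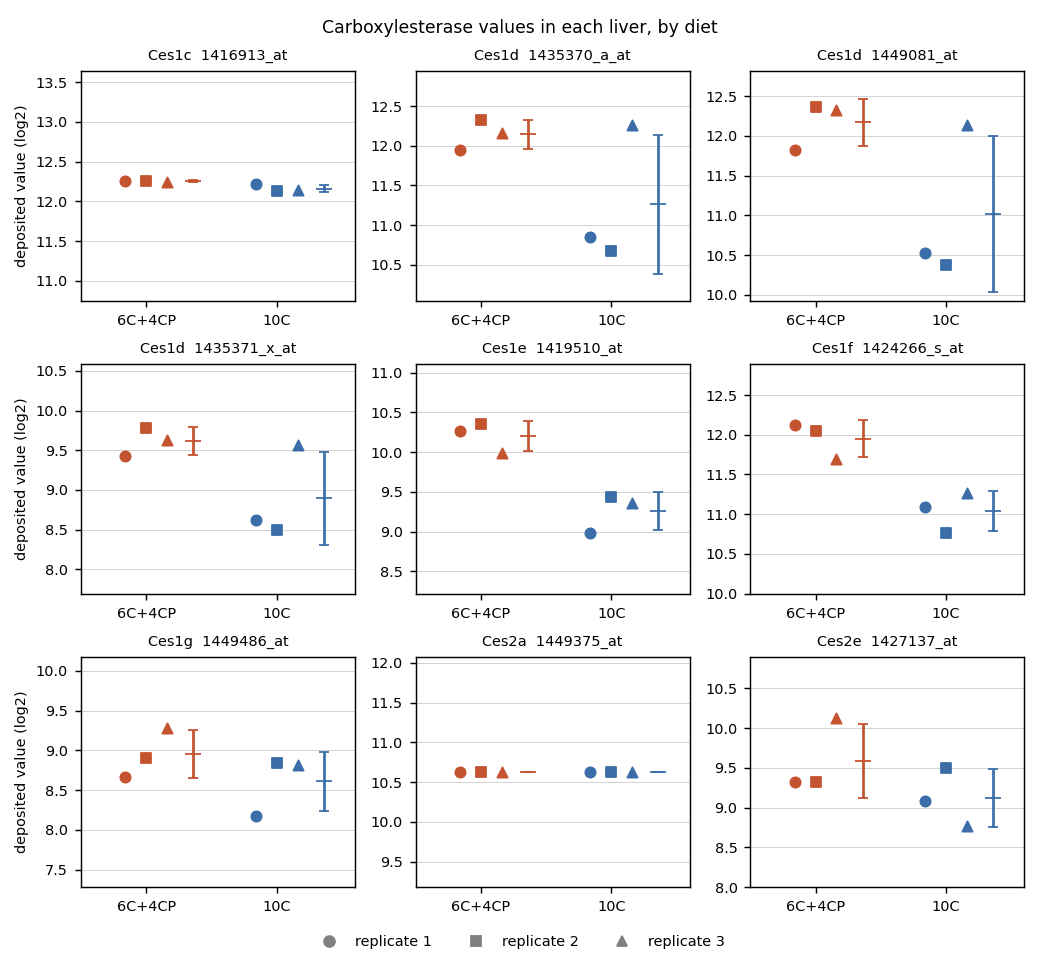
Deposited log2 value (vertical axis, with the same span in every panel) of each of the 9 carboxylesterase probe sets in the 3 livers of mice fed 6C+4CP and the 3 of mice fed 10C, with the mean and SD of each diet beside the points. Ces1e and Ces1f separate the diets, 10C replicate 3 lies among the 6C+4CP livers for all 3 Ces1d probe sets, and Ces2a is at 10.63 on every array.

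Ces1e, also called egasyn, holds beta-glucuronidase in the endoplasmic reticulum of hepatocytes. Its values were 10.27, 10.35 and 9.99 in livers of mice fed 6C+4CP and 8.98, 9.44 and 9.36 in livers of mice fed 10C. The lowest 6C+4CP liver stood 0.55 above the highest 10C liver. The means were 10.20 ± 0.19 in 6C+4CP and 9.26 ± 0.24 in 10C (SD, n = 3 each), a difference of 0.94 (SE 0.18, 95% interval 0.46 to 1.42) or 1.92-fold (1.37 to 2.68). It missed the threshold in limma over all probe sets (adjusted p = 0.504) and over varying probe sets alone (0.115). Of the varying probe sets 1.05% had a difference at least as large. Leaving out any 1 array kept it between 0.80 and 1.05.

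Ces1f, listed as TGH-2, is a lipid hydrolase of the same lumen. Its probe set read 12.12, 12.05 and 11.69 in 6C+4CP livers and 11.09, 10.77 and 11.27 in 10C livers. Here too the diets did not overlap, with a gap of 0.43. The mean was 11.95 ± 0.23 in 6C+4CP and 11.04 ± 0.25 in 10C (SD, n = 3 each), so that the difference was 0.91 (SE 0.19, interval 0.39 to 1.43) or 1.88-fold. limma's adjusted p was 0.552 over all probe sets and 0.129 over varying ones. The identifier of this probe set ends in s_at, the manufacturer's mark for probes that several transcripts can share, so that RNA of close Ces1 relatives may add to its value.

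Ces1d encodes the triacylglycerol hydrolase that releases fatty acids from stored fat for lipoprotein assembly, and it was read by 3 probe sets. The brightest on average, 1435370_a_at, gave 11.95, 12.32 and 12.16 in 6C+4CP livers and 10.85, 10.67 and 12.26 in 10C livers. Probe set 1449081_at gave 11.82, 12.36 and 12.32 in 6C+4CP livers and 10.53, 10.38 and 12.14 in 10C livers. Probe set 1435371_x_at gave 9.43, 9.78 and 9.63 in 6C+4CP livers and 8.62, 8.5 and 9.57 in 10C livers. On all 3 the livers of 10C replicates 1 and 2 lay below every other liver, and 10C replicate 3 lay within the range of the 6C+4CP livers.

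The Ces1d differences were 0.88 (SE 0.51), 1.15 (SE 0.58) and 0.72 (SE 0.35) in that order, or 1.84-fold, 2.22-fold and 1.65-fold. Each 95% interval included 0, and the widest ran from -0.44 to 2.74. limma's adjusted p lay between 0.704 and 0.787 over all probe sets. Without 10C replicate 3 the differences were 1.38, 1.72 and 1.06, and limma on varying probe sets gave adjusted p of 0.0547, 0.0600 and 0.0611, still above the threshold. Without 10C replicate 2 the differences were 0.58, 0.83 and 0.52, and limma on varying probe sets gave adjusted p of 0.710, 0.642 and 0.622. Leaving out arrays in the fit to varying probe sets was not planned. The within-diet spread of 1435370_a_at was an SD of 0.19 in 6C+4CP and 0.87 in 10C. A suffix of x_at marks probes that may bind other transcripts, so that 1435371_x_at may also read relatives of Ces1d.

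Ces1c is the esterase that liver secretes into mouse plasma, listed as Es-N. Its values were 12.26, 12.26 and 12.24 in 6C+4CP livers and 12.22, 12.13 and 12.14 in 10C livers. The diets did not overlap, but the gap was 0.020 and the whole range over the 6 arrays was 0.13, the narrowest of the varying members. The difference was 0.092 (SE 0.029, interval 0.013 to 0.17) or 1.07-fold, with limma's adjusted p at 0.699 over all probe sets. A difference at least as large was found in 22.8% of varying probe sets.

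Ces1g is an endoplasmic reticulum esterase that acts on triacylglycerol in hepatocytes. It had 8.67, 8.91 and 9.28 in 6C+4CP livers and 8.18, 8.84 and 8.81 in 10C livers. The diets overlapped, with 6C+4CP replicate 1 below 2 of the 10C livers. The difference of 0.34 (SE 0.27, interval -0.41 to 1.09) had an adjusted p of 0.852 in limma. It was 0.13 without 10C replicate 1, the lowest liver, and 0.18 without 6C+4CP replicate 3, the highest.

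In the Ces2 group, whose enzymes prefer esters with a small acyl part, Ces2e varied and Ces2a was shrunk. Ces2e had 9.32, 9.32 and 10.13 in 6C+4CP livers and 9.08, 9.50 and 8.77 in 10C livers. A single liver, 6C+4CP replicate 3, stood high, and 10C replicate 2 lay above the other 6C+4CP livers. The difference was 0.47 (SE 0.34, interval -0.45 to 1.39) or 1.39-fold, with an adjusted p of 0.852 in limma. It was 0.20 without 6C+4CP replicate 3 and 0.30 without 10C replicate 3. Ces2a held 10.63 on all 6 arrays, so that no difference could be read. For Ces2c, an acylcarnitine hydrolase by its listed name ACH M1, there is no value here.

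The Ces3 genes, listed as the esterase Es31, had no probe set of their own. A single probe set is annotated to Ces3a and Ces3b together and falls outside the rule. It held 12.93 on every array and was shrunk, so that no diet difference of the Ces3 group could be read. Of the carboxylesterase genes that are not members, Ces2g alone varied, at 7.81 to 7.94 in 6C+4CP livers and 7.69 to 7.96 in 10C livers (difference 0.036, SE 0.087). That difference was -0.038 once 10C replicate 3 was left out, and with another array left out it reached 0.0023 at the lowest and 0.098 at the highest. The probe sets of Ces1h, Ces2b, Ces2f, Ces4a and Ces5a were shrunk.

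**Figure D2:**
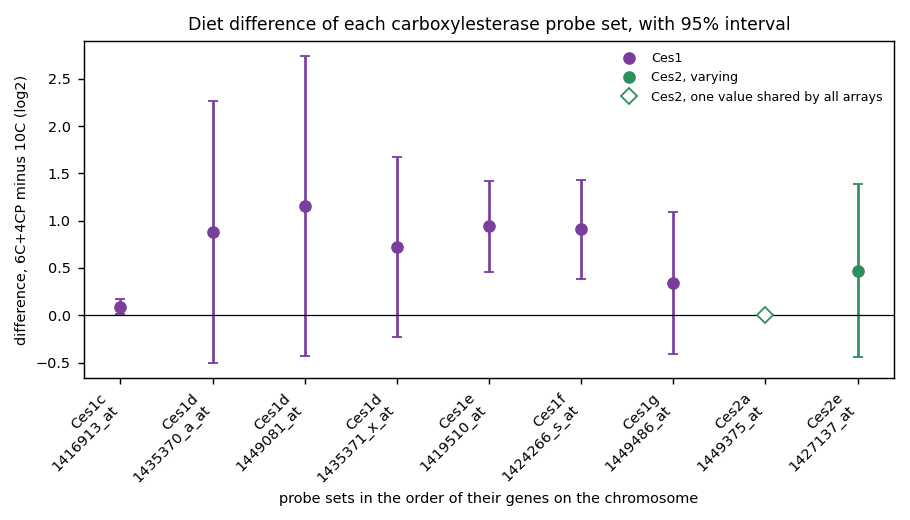
Difference in mean log2 value, 6C+4CP minus 10C (vertical axis), of the 9 carboxylesterase probe sets in the order of their genes on the chromosome, with limma's 95% interval as bars. The intervals of Ces1c, Ces1e and Ces1f lie above 0, those of Ces1d, Ces1g and Ces2e include 0, and Ces2a has no readable difference.

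By group, the median difference over the 7 varying Ces1 probe sets was 0.88, with a range of 0.092 to 1.15, and that of the 1 varying Ces2 probe set was 0.47. The median over all 7791 varying probe sets was -0.0040. A difference of at least 1.5-fold in favour of 6C+4CP was found in 5 of the 8 varying probe sets, which belong to Ces1d, Ces1e and Ces1f, and in 2.84% of varying probe sets. Their genes are adjacent on the chromosome, between Ces1c and Ces1g, whose differences were smaller, and the genes were not tested against one another.

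Diets that did not overlap, with 6C+4CP higher, were found in 3 of 8 varying probe sets (Ces1c, Ces1e and Ces1f) and in 10.8% of all varying probe sets (19.9% in either direction). This count depended on single arrays. Without 10C replicate 3 it was 6 probe sets, as all 3 of Ces1d were added, against 16.7% of varying probe sets. Without 6C+4CP replicate 1 it was also 6 probe sets, now of all 5 Ces1 genes, against 14.0%. Without 10C replicate 2 it was 4, as Ces2e was added, against 15.9%. It was 3 without 6C+4CP replicate 2 (17.3%), 6C+4CP replicate 3 (14.4%) or 10C replicate 1 (14.7%). Fitted to varying probe sets alone, limma called 0 of 8 members and 0 of 7791 probe sets (0.0%), while 2 members, Ces1e and Ces1f, and 14.6% of probe sets had an unadjusted p under 0.05 (8.28% with the higher mean in 6C+4CP).

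**Figure D3:**
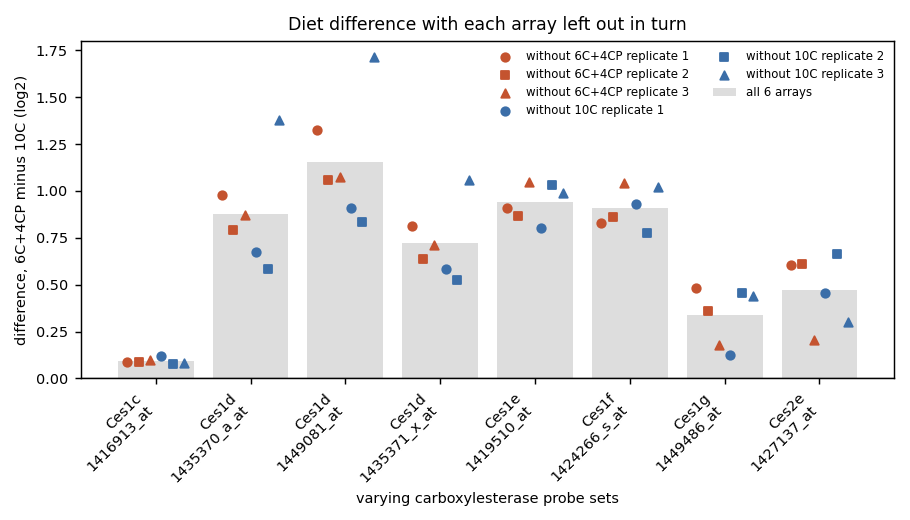
Difference in mean log2 value, 6C+4CP minus 10C (vertical axis), of the 8 varying carboxylesterase probe sets over all 6 arrays (bars from 0) and with each array left out in turn (points). The points of Ces1e lie between 0.80 and 1.05 and those of Ces1f between 0.78 and 1.04, while those of Ces1d 1449081_at run from 0.83 to 1.72.

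The members fell into several patterns over the 6 livers. Likeness was measured as the root-mean-square distance between values centred on each probe set's mean, over 6 arrays. The closest were 1435370_a_at and 1449081_at of Ces1d at 0.171, which read the same gene. Ces1e and Ces1f followed at 0.237, after the 0.185 between 1435370_a_at and 1435371_x_at. Ces2e was nearest to Ces1g (0.317) and farthest from Ces1d 1449081_at (0.864). Over the 8 varying members, 10C replicate 3 lay 0.503 to 0.580 from the 6C+4CP livers but 0.878 and 0.972 from the other 10C livers. Those other 10C livers were 0.352 from each other. Ces1d counts with 3 probe sets in these distances, and on each of them 10C replicate 3 lay within the 6C+4CP range. For Ces1c, Ces1e and Ces1f this liver lay below every 6C+4CP liver, and for Ces2e it was the lowest of all, at 8.77. For Ces1g it lay within the 6C+4CP range at 8.81, as did 10C replicate 2 at 8.84.

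Outside the family, the gene whose pattern was nearest to that of Ces1e was Usp2, a ubiquitin-specific protease, among 6432 candidate probe sets. Its distance was 0.0978, with values of 8.65, 8.93 and 8.51 in 6C+4CP livers and 7.70, 8.01 and 7.87 in 10C livers. Next came Abhd6, a monoacylglycerol lipase, at 0.133, and Ephx1, the microsomal epoxide hydrolase, at 0.146. The diets did not overlap for any of these 3 probe sets. They were picked for a pattern like that of Ces1e, so that this is no separate result. Their differences were 0.84 (SE 0.15), 1.01 (SE 0.22) and 0.69 (SE 0.15), and none passed limma's threshold (adjusted p of 0.484, 0.572 and 0.572). Another probe set of Abhd6 ran from 9.53 to 9.97 in 6C+4CP livers and from 8.11 to 9.65 in 10C livers, with overlap.

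For Ces2e the nearest were Pkdcc, a secreted tyrosine kinase, at 0.178, Orm2, an acute phase plasma protein, at 0.185, and Bdh1, a ketone body dehydrogenase, at 0.186. Each was highest in 6C+4CP replicate 3, like Ces2e, for whose pattern they were picked. For Ces1d, an anchor added after its values were seen, they were Zbtb16, a zinc finger transcription factor, at 0.150, G0s2, an inhibitor of the triacylglycerol lipase Pnpla2, at 0.163, and Mmd at 0.230. G0s2 had 11.73, 12.25 and 12.23 in 6C+4CP livers and 11.03, 10.37 and 12.25 in 10C livers. As for Ces1d, 10C replicates 1 and 2 were its lowest livers and 10C replicate 3 was not. The genes were picked for such likeness, so that these shared features are no separate result.

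**Figure D4:**
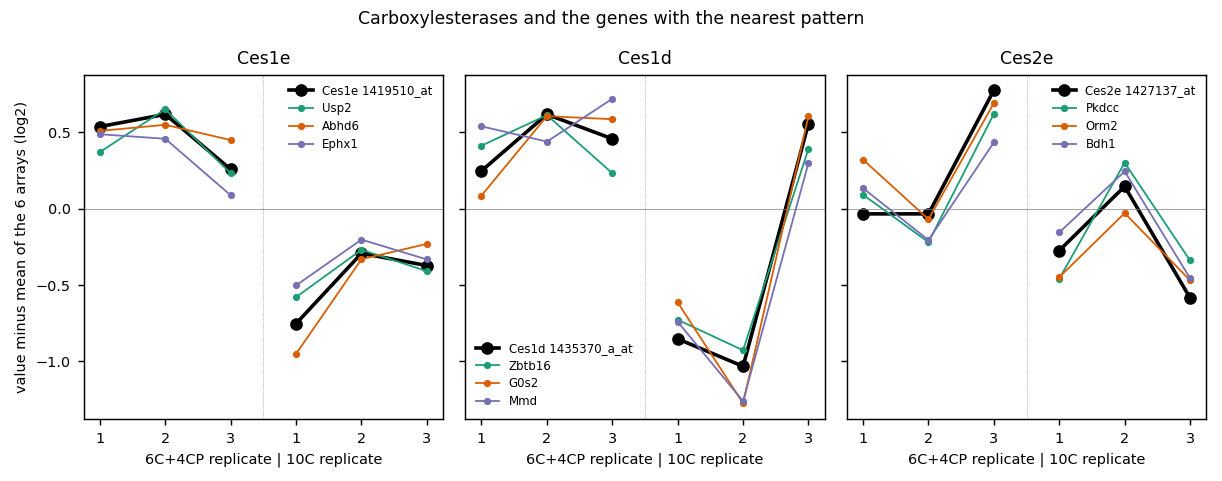
Value minus the mean of the 6 arrays (log2, vertical axis) in each replicate of 6C+4CP and then of 10C, for Ces1e, Ces1d and Ces2e (black) and the 3 genes nearest to each (colours). Replicate numbers carry no order and lines only join points of a gene. Ces1e and its neighbours separate the diets, and Ces1d and its neighbours share a high 10C replicate 3. Ces2e and its neighbours peak in 6C+4CP replicate 3. The neighbours were picked for this likeness.

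The 7 lists of related processes held 78 measured genes, 1 probe set per gene, and none passed limma's threshold. Over these and the 12 cell type lists together, 20 of 145 measured genes had an unadjusted p under 0.05 in limma, against 6.42% of all probe sets. These shares are not alike, as varying probe sets were more frequent in the lists than the 17.3% among all probe sets. Among varying probe sets, fitted alone, 14.6% had such a p. The genes named from each list are those with the smallest p, so that a lack of overlap among them is no sign of the list. Over all varying probe sets, 10.8% did not overlap with 6C+4CP higher, and 19.9% in either direction. Among 15 measured hydrolases of neutral lipids and cholesteryl esters 11 varied, 9 with a higher and 2 with a lower mean in 6C+4CP (median difference 0.37). Pnpla2, the main triacylglycerol lipase of lipid droplets, was at 7.77 ± 0.097 in 6C+4CP and 7.39 ± 0.10 in 10C (SD, n = 3 each), a difference of 0.37 (SE 0.079). Nceh1, which hydrolyses cholesteryl esters, differed by 0.61 (SE 0.23), Ddhd2, an intracellular lipase, by 0.65 (SE 0.19), and Pnpla8, a phospholipase, by 0.26 (SE 0.059). These 4 did not overlap between the diets. Of the 11 varying genes 5 did not overlap with 6C+4CP higher, against the 10.8% of varying probe sets.

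Among 13 measured genes of very low density lipoprotein assembly 8 varied, 6 higher and 2 lower in mean (median 0.20). Fitm2, which sorts triacylglycerol into droplets, averaged 9.53 ± 0.27 in 6C+4CP and 8.54 ± 0.54 in 10C, a difference of 0.99 (SE 0.34). Lpin2, a phosphatidate phosphatase, differed by 0.43 (SE 0.091) and Cidec, a droplet fusion protein, by 0.20 (SE 0.058), with the diets apart for these 3 of the 8 varying genes. Apob, the structural protein of the particle, had a difference of -0.18 (SE 0.092), with overlap.

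Of 16 transcriptional regulators 13 varied, 10 higher and 3 lower in mean (median 0.078). Ppara, the fatty acid receptor, differed by 0.39 (SE 0.094), Hnf4a, a regulator of hepatocyte genes, by 0.40 (SE 0.13) and Nr1i2, the xenobiotic receptor PXR, by 0.41 (SE 0.17). The diets did not overlap for these 3 of the 13 varying genes. Nr1i3, the receptor CAR, differed by 0.53 (SE 0.29; 0.81 without 10C replicate 3), with overlap: 10C replicate 3 was at 9.39 and the other 10C livers at 8.61 and 8.5, against 9.20 to 9.56 in 6C+4CP livers.

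Among 13 measured targets of CAR and PXR 9 varied, 6 higher and 3 lower in mean (median 0.10). Gsta2, a glutathione transferase, averaged 9.06 ± 0.41 in 6C+4CP and 7.62 ± 0.41 in 10C (SD, n = 3 each), a difference of 1.43 (SE 0.33). Abcc3, an export pump, differed by -0.45 (SE 0.11) and Cyp2c29, a drug-oxidising enzyme, by -0.62 (SE 0.20), and these 3 of the 9 varying genes had diets apart, 1 higher and 2 lower. Aldh1a1, a retinal dehydrogenase, differed by 0.45 (SE 0.21), with overlap. Members of this list therefore lay on both sides of 0.

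Of 11 other esterases and hydrolases 9 varied, 6 higher and 3 lower in mean (median 0.039). Ephx1 averaged 10.76 ± 0.23 in 6C+4CP and 10.07 ± 0.15 in 10C. Pon2, a lactonase, differed by 0.17 (SE 0.074), and by 0.096 without 6C+4CP replicate 1. Ephx2, the soluble epoxide hydrolase, differed by 0.25 (SE 0.21). Leaving out 10C replicate 3 gave 0.41, 10C replicate 1 gave 0.11 and 6C+4CP replicate 2 gave 0.14. Bphl, a serine hydrolase, differed by 0.012 (SE 0.0099), and by 0.0065 to 0.021 with 1 array left out. Of the receptors that retrieve proteins to the endoplasmic reticulum, Kdelr2 was at 10.47 to 10.62 in 6C+4CP livers and 10.70 to 10.86 in 10C livers, a difference of -0.22 (SE 0.065). Kdelr3 differed by 0.039 (SE 0.045), and leaving out 10C replicate 3 gave -0.00055, 6C+4CP replicate 1 gave 0.025 and 10C replicate 2 gave 0.070. Gusb, the beta-glucuronidase that egasyn binds, was shrunk at 7.69.

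**Figure D5:**
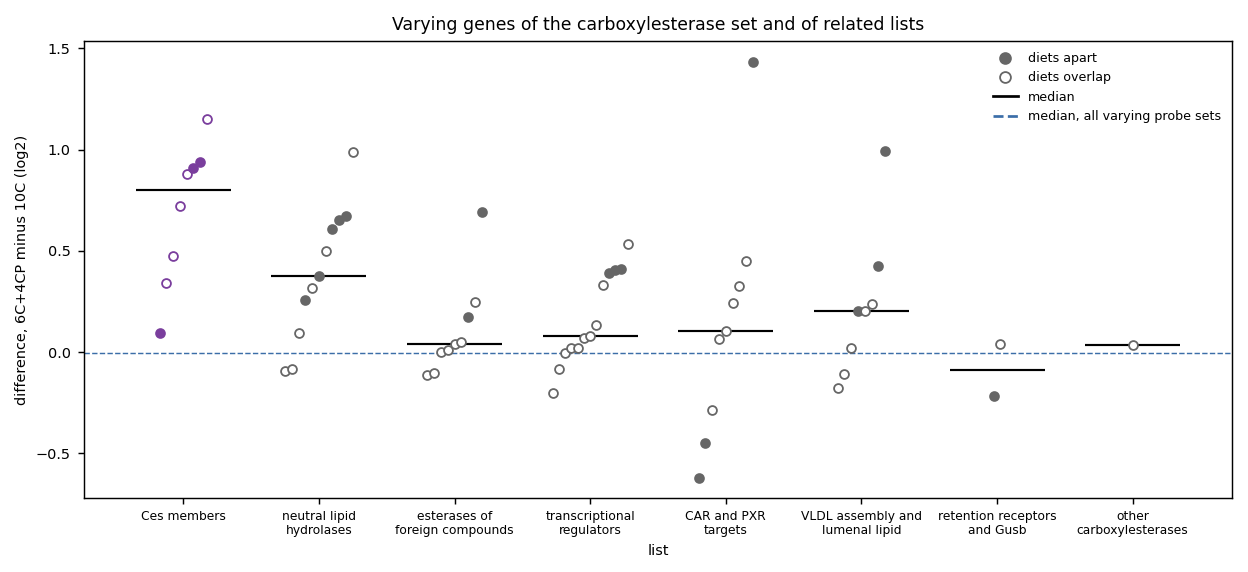
Difference in mean log2 value, 6C+4CP minus 10C (vertical axis), of the varying carboxylesterase probe sets (left) and of the varying genes of 7 related lists, with filled points where the diets did not overlap and a line at each median. The medians are 0.80 for the members, 0.37 for neutral lipid hydrolases and 0.078 for the regulators, and -0.0040 (dashed) for all varying probe sets. The members count every varying probe set, with 3 for Ces1d, but the lists count 1 probe set per gene, so that these medians are not alike.

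Markers of other cell types were read beside these values. Of 4 intestinal genes 3 varied, all 3 higher in mean. The summed linear values of the 4 ran from 2285 to 2586 in 6C+4CP livers and from 2134 to 2233 in 10C livers. Most of each sum came from Fabp2, which overlapped, at 10.90 to 11.12 in 6C+4CP livers and 10.86 to 10.95 in 10C livers. Vil1 was low, at 5.87 to 6.00 in 6C+4CP livers and 5.85 to 5.86 in 10C livers. Lgals4, a galectin, differed by 0.76 (SE 0.14). Among 4 adipocyte genes Car3 alone varied, with sums of 12957 to 14426 in 6C+4CP and 11821 to 12990 in 10C. Nearly all of each sum came from Car3, which overlapped, at 13.63 to 13.79 in 6C+4CP livers and 13.50 to 13.64 in 10C livers. The defining genes Adipoq, Lep and Retn were shrunk at 5.80, 6.34 and 6.83, so that the sums follow Car3 and do not measure adipocytes. Among 2 erythroid genes Alas2 varied, with sums of 866 to 949 in 6C+4CP and 811 to 872 in 10C. Among 5 B or T cell genes Ighm varied, lower in mean, with sums of 649 to 680 in 6C+4CP and 746 to 941 in 10C. Their part in the carboxylesterase differences was not tested.

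Of 10 Kupffer cell and macrophage genes 6 varied, 1 higher and 5 lower in mean, with sums of 2304 to 3221 in 6C+4CP and 2567 to 3612 in 10C. The 4 cholangiocyte and the 5 pancreatic acinar genes were all shrunk. Hepatocyte genes summed to 63781 to 64708 in 6C+4CP and 65182 to 65304 in 10C, over 5 genes. The diets were apart for the 3 that varied, lower in 6C+4CP for Apoa1 (-0.11, SE 0.024) and Ahsg (-0.074, SE 0.023) and higher for Ttr (0.032, SE 0.012). Of 7 sinusoidal endothelial genes 1 varied, higher in mean, and of 7 stellate cell genes 4 varied, 1 higher and 3 lower. The diets overlapped for each of these. Of 8 pericentral genes 2 were higher and 4 lower in mean, and of 6 periportal genes 2 were higher and 3 lower. Among the periportal genes the diets were apart for Hsd17b13, a lipid droplet enzyme, with a difference of 0.20 (SE 0.021), and in the other direction for Hal, the histidine ammonia lyase, with -0.26 (SE 0.074).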

How the data were processed

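Liver RNA of 6 mice, 3 per diet, was measured on 1 Affymetrix 3' array each. Purified RNA of tissue from RNAlater was labelled with a 3' IVT Express kit, per the labels' protocols. The deposited values, made by the authors with R 2.7.2 per the submitters' processing notes, were read as log2. Background correction, summary and normalization were not given in the sources used here. Precision is limited by the number of arrays.

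Samples were grouped by title. 64 control probe sets were left out. GEO's platform annotation gave 1 symbol for 34945 probe sets, several for 932 and none for 9160. The test between diets was limma's (version 3.58.1, in R 4.3.3) with lmFit and eBayes on 45037 probe sets, two-sided and with no covariates. The threshold was 0.05 on the Benjamini-Hochberg adjusted p. The code was tested on simulated data. For lists the probe set with the highest mean stood for a gene, and 145 of 166 symbols had one. Promoters are RefSeq's (GRCm38.p6), read with Python 3.11.15 and aligned with Biopython 1.88.

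All members were named, with up to 4 genes of each list of related processes by smallest p among varying probe sets. Of the genes that the same rule picked in the cell type lists, only some were named. The 3 genes nearest to the member with the smallest p in each group were named as well (the Ces3 group had none varying). The members and lists were chosen with earlier results of these data known. G0s2 and the other neighbours of Ces1d, and Alb, Adipoq, Lep, Retn and Gusb, were named after their values were seen. Alternatives were the replicate block, each array left out, quantile normalization, median centring, varying or brighter probe sets, robust estimation with an intensity trend, 1 probe set per gene and other thresholds.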

Additional observations from a re-analysis of the deposited data

How the results depend on the processing

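Quantile normalization, median centring and leaving out each array are the 8 settings that can move a difference. They gave 64 differences of the varying carboxylesterase probe sets, and all 64 were positive. For Ces1c, Ces1e and Ces1f, whose diets did not overlap, leaving out 1 array could not change the sign. The settings share the same 6 arrays and 3 of the probe sets read Ces1d, so that the 64 are not separate results. The count of carboxylesterase probe sets past the threshold was 0 under every alternative but median centring, which gave 7. Under median centring each of these probe sets had the same SE of 0.090, and the count over all probe sets was 1324 against 109 as reported. That count was 3 with the replicate block, 1 after quantile normalization, 0 on varying probe sets, on the brighter part of the probe sets or with an intensity trend and robust estimation, 46 with 1 probe set per gene, 1 for a range over 0.1, and 285 to 398 with 1 array left out. The cause of these shifts was not tested. For genes of the other lists the count was 21 under median centring and 0 to 2 with 1 array left out, the 2 being the shrunk Ces4a and Lipe without 6C+4CP replicate 2. The median Ces1 difference ran from 0.58 to 1.02 and that of Ces2 from 0.20 to 0.66 with 1 array left out. Leave-one-out counts of non-overlapping carboxylesterase probe sets, chosen after seeing the data, ran from 3 to 6.

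The deviations of same-numbered samples from their diet means correlated at 0.477, -0.0893 and 0.0847 for numbers 1, 2 and 3, and since only number 1 exceeded 0.1 the numbers were not treated as pairs. Of 6 samples, 3 correlated best with their own number. With the replicate block 0 carboxylesterase probe sets passed, and limma's adjusted p of Ces1e was 0.627.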
